A study of Mus musculus with 27 samples.

Results

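The genes described here code for the machinery that copies DNA. The choice was by name and role in replication, with earlier results of these data known, and gave 44 genes. They were looked up in 27 mouse prostate tumours, and 43 of them had a probe-set row of their own among the 22180 genes so named. Rfc4, a clamp loader subunit, shares its row with Eif4a2 and is not analysed here. Each tumour came from a different transgene-positive male of an F2 cross between C57BL/6-Tg(TRAMP)8247Ng/J and PWK/PhJ mice, and was snap frozen and hybridised to 1 array. Animals were assessed at an age of 30 weeks, or earlier where the humane limit was met, so age was not the same for all. The TRAMP transgene places the SV40 early region under the probasin promoter, which is active in prostate epithelium and responds to androgen. All 27 tumours form 1 group with no control tissue and no treatment, so the comparisons below are among tumours, which are named by their animal number. The F2 genotype of each animal at these genes was not used here.

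Replication begins when the origin recognition complex, Cdc6 and Cdt1 load the ring of Mcm2 to Mcm7 onto DNA, which is called licensing. In S phase Cdc45 and the GINS complex turn that ring into the active helicase, primase with polymerase alpha lays down primers, and polymerases delta and epsilon extend them on the sliding clamp Pcna. Many of these genes are induced together at the start of S phase by E2F factors, which the retinoblastoma proteins otherwise restrain. The SV40 large T antigen of the TRAMP transgene binds the retinoblastoma proteins.

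Promoters were examined for the sequence that E2F factors are known to bind. RefSeq windows of 300 bases, from 250 before to 50 after the start of the gene, were at hand for 36 of the 43 measured genes. The motifs searched on both strands were TTTGGCGC, TTTCCCGC, TTTGCCGC and TTTCGCGC, and overlapping matches were joined. At least 1 of them was present in 15 of the 36 promoters, or 41.7%, against 2.60% of the 27025 symbols in the same RefSeq table. A match describes the letters and does not show that a factor is bound. The sequences of 6 of these promoters are shown because they belong to 4 subunits of the helicase ring, to the licensing factor Cdc6 and to the clamp loader subunit Rfc3, whose levels are taken up below. They read 5′ to 3′ on the strand of the gene in the build GRCm38.p6, with the matches in capitals.
Mcm3 (chr1:20820263-20820562, minus strand): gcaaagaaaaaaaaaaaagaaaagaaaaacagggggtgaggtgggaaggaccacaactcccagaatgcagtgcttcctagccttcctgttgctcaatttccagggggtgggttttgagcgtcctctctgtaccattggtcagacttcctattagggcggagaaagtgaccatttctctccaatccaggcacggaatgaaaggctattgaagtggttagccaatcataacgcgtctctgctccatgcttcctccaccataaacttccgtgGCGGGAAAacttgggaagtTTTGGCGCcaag
Mcm5 (chr8:75109259-75109558, plus strand): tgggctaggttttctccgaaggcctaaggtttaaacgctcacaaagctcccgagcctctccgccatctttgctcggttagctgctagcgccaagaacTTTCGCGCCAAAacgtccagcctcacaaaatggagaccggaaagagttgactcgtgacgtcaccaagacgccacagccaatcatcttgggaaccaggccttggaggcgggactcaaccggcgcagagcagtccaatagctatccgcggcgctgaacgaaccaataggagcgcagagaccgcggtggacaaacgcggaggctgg
Mcm6 (chr1:128359656-128359955, minus strand): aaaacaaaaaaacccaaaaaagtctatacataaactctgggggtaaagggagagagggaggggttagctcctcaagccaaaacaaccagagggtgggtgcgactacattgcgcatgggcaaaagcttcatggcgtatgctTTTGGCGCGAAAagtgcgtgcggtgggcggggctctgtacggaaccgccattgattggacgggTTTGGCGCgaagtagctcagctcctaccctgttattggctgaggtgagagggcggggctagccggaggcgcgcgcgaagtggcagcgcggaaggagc
Mcm7 (chr5:138171834-138172133, minus strand): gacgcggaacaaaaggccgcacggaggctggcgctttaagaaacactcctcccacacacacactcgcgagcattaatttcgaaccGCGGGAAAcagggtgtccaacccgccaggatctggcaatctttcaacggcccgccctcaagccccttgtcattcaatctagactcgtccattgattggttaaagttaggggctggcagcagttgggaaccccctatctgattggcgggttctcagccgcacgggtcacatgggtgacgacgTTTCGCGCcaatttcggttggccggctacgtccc
Cdc6 (chr11:98907901-98908200, plus strand): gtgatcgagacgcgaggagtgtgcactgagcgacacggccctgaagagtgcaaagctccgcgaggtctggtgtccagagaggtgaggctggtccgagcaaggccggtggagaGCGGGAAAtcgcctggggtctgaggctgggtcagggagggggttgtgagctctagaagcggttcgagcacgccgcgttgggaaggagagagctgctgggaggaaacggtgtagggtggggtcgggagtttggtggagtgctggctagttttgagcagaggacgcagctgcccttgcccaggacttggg
Rfc3 (chr5:151651159-151651458, minus strand): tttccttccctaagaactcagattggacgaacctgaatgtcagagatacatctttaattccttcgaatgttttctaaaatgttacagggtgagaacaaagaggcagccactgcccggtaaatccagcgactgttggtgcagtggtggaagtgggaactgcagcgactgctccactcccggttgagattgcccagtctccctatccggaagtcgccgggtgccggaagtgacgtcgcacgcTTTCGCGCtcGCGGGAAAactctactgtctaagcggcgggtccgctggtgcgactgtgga
In Mcm5 and Mcm6 a pair of motifs on opposite strands overlaps, which gives runs of 12 bases that begin 153 bases before the start in Mcm5 and 110 bases before it in Mcm6. Mcm6 holds a further match 47 bases before the start. In Mcm3 both matches lie after the start, beginning 19 and 38 bases into the transcript. The other 9 genes with a match were Cdt1, Gins3, Lig1, Orc1, Orc3, Pola1, Pold1, Pold3 and Pole2. The shorter motif CCAAT, bound by the factor NF-Y and common in many promoters, was present in 23 of the 36 promoters, or 63.9%, against 41.1% of all symbols, and 8 promoters held both.

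All 43 measured genes had a mean level above the median of all probe-set rows, which was 5.75 on the deposited log2 scale. Their means lay between 6.78 for Orc1 and 10.95 for Mcm5, and levels of different genes are not compared here because their probes differ. The array medians lay between 5.67 and 5.82, the correlation between arrays was between 0.891 and 0.986, and precision is set by having 27 arrays. Of the marker genes, 12 of 13 for luminal epithelium, 8 of 11 for androgen response and 13 of 14 for neuroendocrine cells had a mean above the median of all rows. So did 8 of 8 for smooth muscle, 9 of 9 for endothelium and 10 of 11 for fibroblasts, so this measure does not single out prostate tissue. In such bulk tumours, fewer cells of a type and less RNA per cell cannot be told apart. Fen1, Pole, Rpa1, Rpa3 and Rrm2 had a further, dimmer row each, and the 2 rows of a gene correlated at only 0.44 (Rrm2) or less over the tumours. The brighter row was used.

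Tumour P425 stood apart. It had been singled out for its low cell-cycle expression in earlier work on these data, so its values are a description with no test. It had the lowest level of the 27 tumours for 33 of the 43 genes, or 76.7%, whereas it was the lowest tumour for 11.5% of all 22180 genes. All 43 genes were below the mean of the other 26 tumours in P425, and none was highest there. Of all 22180 genes, 10.9964% had their highest level in P425. The mean of the other tumours was 1.87-fold that of P425 at the median of the 43 genes, and more than 2-fold for 17 of them. The same tumour was the lowest for 22 of 23 mitosis genes, with a mitosis score of -1.94 against -0.44 to 0.53 elsewhere. A score is the mean over the genes of a list of the log2 level minus the mean of that gene. P425 was also the tumour with the highest value of 6 of 6 adipose markers, with a score of 3.22 against -0.95 to 1.48 elsewhere, and of 6 of 11 androgen-responsive genes, with a score of 3.45 against -0.84 to 2.57. Its smooth muscle score was 2.18 against -1.04 to 2.42 elsewhere, and its luminal epithelium score was 2.66 against -1.47 to 2.49. Its neuroendocrine score was -1.91, against a median of 0.32 in the others, of which P471, P966 and P1276 were also low (-2.91, -2.10 and -1.65). The part of these cell types in the low replication genes was not tested. The fits below are therefore given with and without P425.

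**Figure D1:**
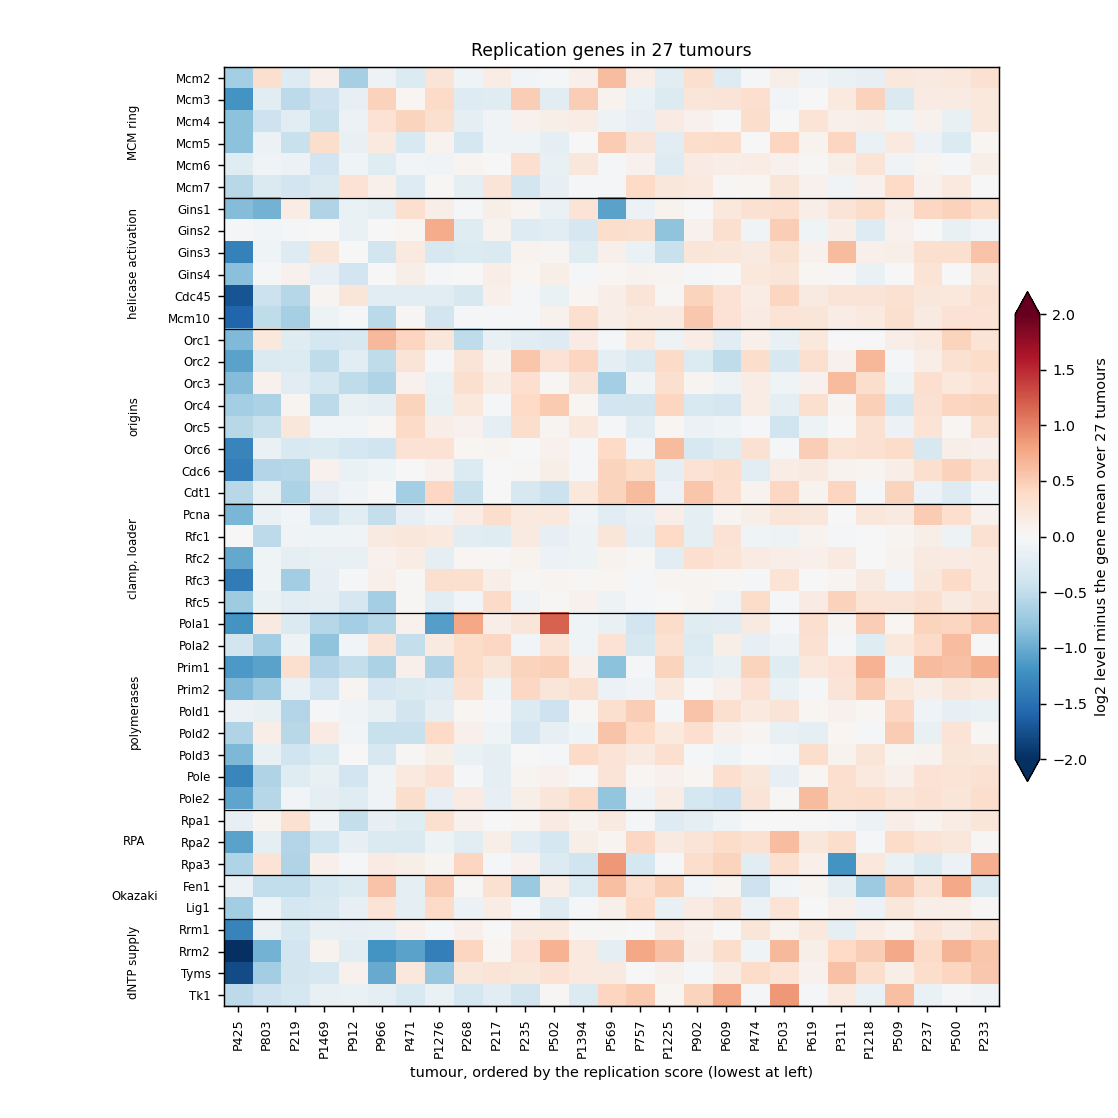
Log2 level of each of the 43 replication genes (rows, grouped by role) minus the mean of that gene, in each of the 27 tumours (columns, ordered by replication score from the lowest at left). P425, at the far left, is the lowest tumour for 33 genes, while Gins2, Rfc1, Pold1, Rpa1 and Fen1 are near their means there.

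Of the 43 genes Rrm2, the regulated subunit of ribonucleotide reductase, which supplies deoxynucleotides, had the widest range. It had a level of 7.99 in P425, against 8.79 in the next lowest tumour (P1276), a median of 10.35 over the 27 tumours and a highest level of 10.93 (P757). This is 4.75-fold lower in P425 than the mean of the others, and Rrm2 still spanned 4.42-fold among the 26 other tumours, where P1276, P966, P471 and P803 were low. Tyms, thymidylate synthase, had 7.37 in P425, followed by 8.15 in P966, with a median of 9.35 and a highest level of 9.74 in P311. Rrm1, the large subunit of ribonucleotide reductase, had 9.41 in P425, while the next lowest tumour, P219, had 10.43 and the highest, P233, had 11.04. Outside P425 the level of Rrm1 varied only 1.53-fold, the narrowest such span of the 4 genes of this role. Tk1, thymidine kinase of the salvage route, had 8.56 in P425 and 8.67 in P803, a median of 8.96 and its highest levels in P503 (9.95) and P609 (9.83), so that P425 did not stand apart for it.

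Among the genes that turn the ring into a helicase, Cdc45 had 6.96 in P425, against 8.12 in the next lowest tumour (P219), a median of 8.81 and a highest level of 9.12 (P902). Mcm10, which binds and helps to activate the helicase, had 6.62 in P425, against 7.54 in P219, a median of 8.35 and a highest level of 8.74 in P902. These genes were 3.46-fold and 3.11-fold lower in P425 than the mean of the others. Of the 4 GINS subunits, Gins3 was 2.64-fold and Gins4 1.82-fold lower in P425, with the lowest level of each there. Gins1 had its lowest level in P569 (6.16) and P803 (6.30), just below P425 (6.37). Gins2 had 8.79 in P425, near its median of 8.81, and was lowest in P1225 (8.02) and highest in P1276 (9.57). The 4 subunits of 1 complex thus had their lowest levels in 3 different tumours.

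Of the helicase ring, 5 subunits were lowest in P425: Mcm2, Mcm3, Mcm4, Mcm5 and Mcm7, by up to 2.36-fold (Mcm3) against the mean of the others. Mcm6 had the narrowest spread of all 43 genes (SD 0.17), between 10.16 in P1469 and 10.88 in P235, and was 1.19-fold lower in P425. Of the licensing genes, Cdc6 had 7.84 in P425, against 8.64 in P803, a median of 9.29 and a highest level of 9.68 in P500. Orc6 had 7.47 in P425, against 8.40 in P966, a median of 8.84 and a highest level of 9.44 in P1225. The core subunits Orc2 to Orc5 were also lowest in P425, but Orc4 (7.99 in P425 and 8.05 in P803) and Orc5 (7.32 in P425 and 7.42 in P803) only narrowly so. Cdt1, which brings the ring to the origin, was lowest in P471 (9.25) and P219 (9.30), with 9.38 in P425 and a highest level of 10.58 in P757.

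The sliding clamp Pcna had 10.04 in P425, against 10.47 in P966, a median of 11.005 and a highest level of 11.45 in P237. The small clamp loader subunits Rfc2 (7.42 in P425 and at least 8.23 elsewhere) and Rfc3 (7.99 in P425 and at least 8.69 elsewhere) were clearly lowest there. The large subunit Rfc1 was not, with 8.32 in P425 against a median of 8.28 and a lowest level of 7.81 in P803. Pole, the catalytic subunit of polymerase epsilon, had 8.31 in P425 and 9.02 in P803, and was 2.57-fold lower in P425. By contrast Pold1, the catalytic subunit of polymerase delta, had 8.66 in P425, near its median of 8.74, and was lowest in P219 (8.19). Pola1, the catalytic subunit of polymerase alpha, had 8.57 in P425, next to 8.66 in P1276, and reached 10.53 in P268 and 10.94 in P502. It spanned 4.86-fold without P425, the most of the 43 genes. Prim1, the primase that makes the primer, had 8.34 in P425 and 8.42 in P803, a median of 9.59 and a highest level of 10.20 in P233.

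Of the single-strand binding complex, Rpa2 was lowest in P425 (8.37, against 8.85 in P219, a median of 9.49 and 10.05 in P503). Rpa1, the large subunit, had 9.38 in P425 and varied 1.73-fold in all. Rpa3, the smallest subunit, was lowest in P311 (9.03), and had 9.62 in P425 and 11.09 in P569. Of the 2 genes that join Okazaki fragments, the ligase Lig1 was lowest in P425 (9.17, against 9.52 in P219, a median of 9.89 and 10.27 in P757). The flap nuclease Fen1 had 7.41 in P425, near its median of 7.46, and was lowest in P235 (6.77) and P1218 (6.80). The median SD of the 43 genes was 0.347, against 0.303 over all genes. Without P425 it was 0.281 for the 43 genes and 0.290 for all genes, so the replication genes had the higher median SD only with P425 included. Even so, 29 of the 43 genes spanned more than 2-fold over those 26 tumours.

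The mean of the 43 genes in a tumour, the replication score, was -0.89 in P425, followed by P803 (-0.28), P219 (-0.27), P1469 (-0.21), P912 (-0.17) and P966 (-0.16). It was highest in P237 (0.18), P500 (0.21) and P233 (0.23). The luminal epithelium score was between 1.74 and 2.66 in P425, P803, P219, P1469 and P966, and between -0.57 and -1.28 in P233, P500 and P237. P912 did not share this, with a low replication score and a luminal score of -1.12, nor did P569, with a replication score above 0 and a luminal score of 1.95. The luminal scores fall into separate clusters, so no correlation over all tumours is given for them. The replication score correlated with the mitosis score at Pearson's r = 0.92 over 27 tumours and at 0.77 over 26 without P425. These r values, like those below, come from genes measured on the same arrays and are descriptions with no test.

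**Figure D2:**
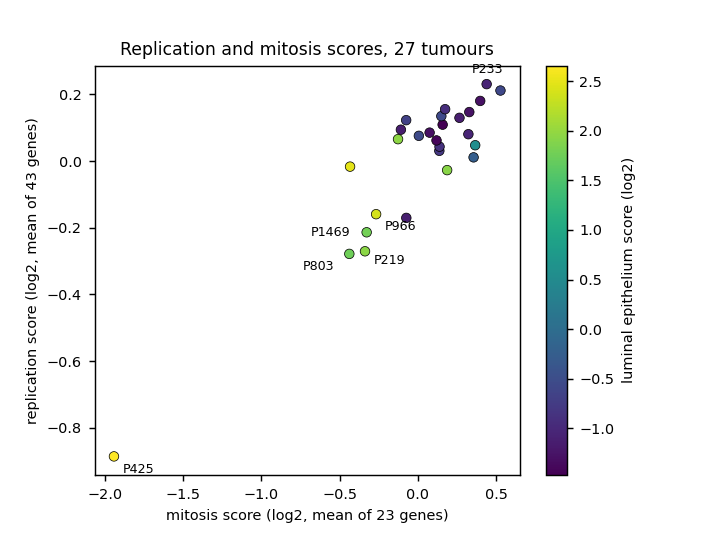
Replication score (mean of 43 genes, vertical) against mitosis score (mean of 23 genes, horizontal), both in log2 units, 1 point per tumour, coloured by the luminal epithelium score. P425 lies far from the other 26 tumours at the lower left, and P803, P219, P1469 and P966 have the next low pairs of scores with high luminal scores.

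Each gene was fitted on the mitosis score with limma over all genes at once, and a gene was called at a Benjamini-Hochberg adjusted p under 0.05 over the 22157 genes tested. The mitosis list holds no replication gene. The score was scaled to SD 1 over the tumours of each fit, so slopes with and without P425 are not in the same unit. Of the 43 replication genes 29 rose with the mitosis score and 0 fell, where 13.2% of all genes tested rose and 14.7% fell. Of the genes above the median of all rows, where all 43 lie, 23.1% rose and 16.4% fell when fitted alone. The same 29 replication genes rose in that fit. In the fit of all genes the median slope of the 43 was 0.21 log2 per SD of the score, against -0.02 over all genes. Without P425, 15 of the 29 remained called and 1 gene fell, where 9.37% of all genes rose and 10.5% fell, and the median slope was 0.09 against -0.03 over all genes. The count therefore rests in large part on 1 tumour.

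The steepest slopes belonged to nucleotide supply and to priming. Rrm2 rose by 0.58 ± 0.09 per SD (SE, 27 tumours, limma adjusted p = 1.8e-05) and by 0.41 ± 0.09 without P425 (adjusted p = 0.0025). Tyms rose by 0.47 ± 0.05 with P425 and by 0.32 ± 0.05 without it. Rrm1 had the smallest adjusted p of the 43 genes (7.8e-10 in limma), with a slope of 0.29 ± 0.02, and 0.12 ± 0.02 without P425. Prim1, the primase, had a slope of 0.42 ± 0.07 with P425 and of 0.42 ± 0.06 without it. Pola1, polymerase alpha, had 0.41 ± 0.07 and 0.38 ± 0.06, each per SD of the score in that fit. Prim2, the primase regulatory subunit, Pole2, a polymerase epsilon subunit, and Pold3, a polymerase delta subunit, also rose in both fits. The catalytic subunit Pole was called with P425 (0.28 ± 0.04) and narrowly missed the threshold without it (0.12 ± 0.04, limma adjusted p = 0.050). Pold1, Pold2 and Pola2 were called in neither fit.

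Of the licensing genes 7 of 8 rose with the mitosis score. Orc2, Orc3 and Orc4 kept their call without P425, with slopes of 0.26 ± 0.05, 0.20 ± 0.05 and 0.27 ± 0.05. Orc1, Orc5, Orc6 and Cdc6 did not keep it, and Cdt1, with a slope of 0.05 ± 0.07 over 27 tumours, was called in neither. Of the helicase ring, Mcm3, Mcm4 and Mcm7 rose over 27 tumours and none of the 6 did without P425, where the slopes lay between -0.09 (Mcm5) and 0.07 (Mcm4). Of the helicase activators 5 of 6 rose, and Gins1 (0.22 ± 0.07) and Mcm10 (0.19 ± 0.05) kept the call without P425. Cdc45 had a slope of 0.34 ± 0.05 with P425 and of 0.11 ± 0.05 without it, which was not called. Gins2 was the only gene of the 43 with a negative slope over 27 tumours, -0.08 ± 0.06 and not called, and it fell by 0.15 ± 0.05 without P425 (limma adjusted p = 0.040). Of the clamp genes, Pcna and Rfc5 rose in both fits, Rfc2 and Rfc3 only in the fit with P425, and Rfc1 in neither. Rpa2 rose only in the fit with P425, and Rpa1, Rpa3, Fen1, Lig1 and Tk1 were called in neither fit. Whether slopes differ between the fits was not tested.

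**Figure D3:**
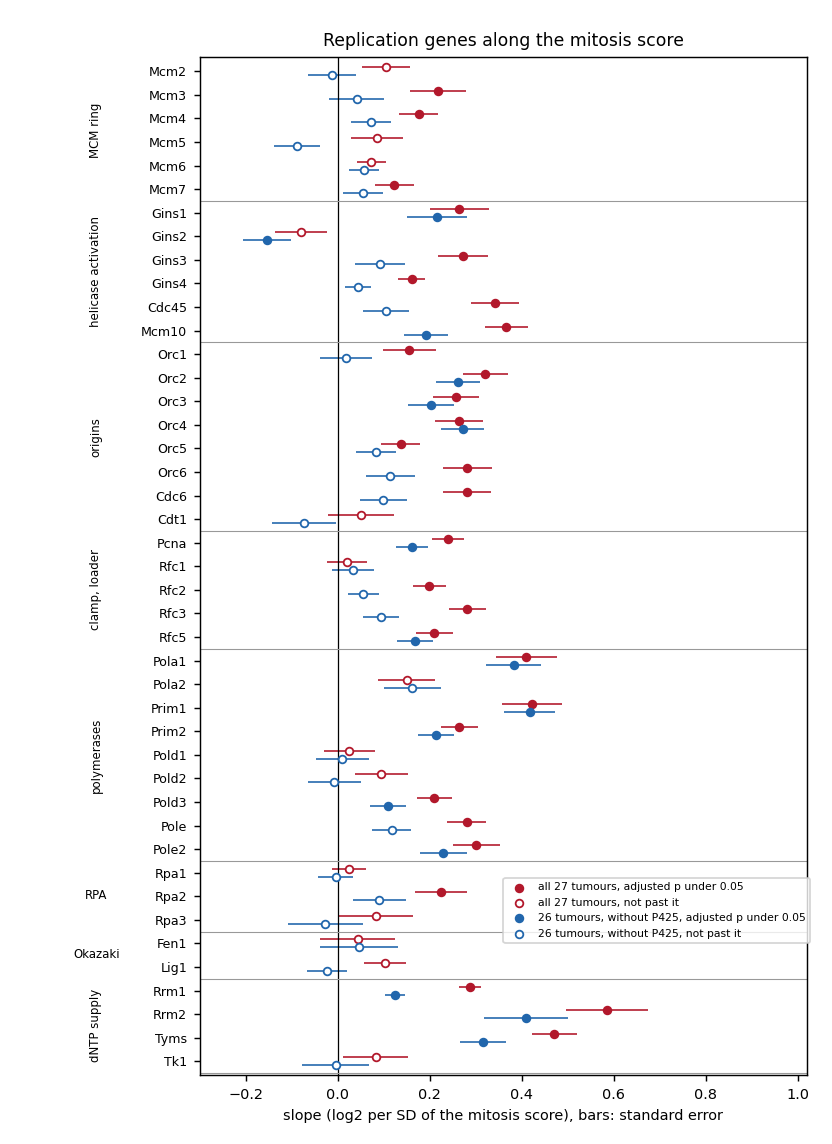
Slope of each replication gene on the mitosis score (log2 per SD, bars are standard errors), with all 27 tumours in red and without P425 in blue, filled where the limma adjusted p was under 0.05. Filled red points number 29 of 43, and 15 genes rise and 1, Gins2, falls in the blue fit. The SD is that of the tumours in each fit, so red and blue slopes differ in unit.

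Markers of cell types also moved with the mitosis score, where 13.2% of all genes rose and 14.7% fell. Of 13 luminal markers 11 fell, of 8 smooth muscle markers 7 fell, of 6 adipose markers 4 fell, and of 14 neuroendocrine markers 6 rose. Without P425, 9.37% of all genes rose and 10.5% fell. There 9 of 13 luminal markers fell, 1 of 14 neuroendocrine markers rose, and the smooth muscle and adipose markers did not pass the threshold. Of 9 endothelium markers 0 fell with P425 and 3 without it, and of 13 hypoxia and glycolysis genes 1 and 3 fell. Of 11 androgen-responsive genes 5 fell with P425, and 1 fell and 1 rose without it. With the luminal and neuroendocrine scores as covariates 24 of the 43 genes rose, where 6.83% of all genes did. With both and without P425, 7 rose, where 4.63% of all genes did: Orc2, Orc4, Pola1, Prim1, Pole2, Rrm1 and Tyms. In that fit Pola1 had a slope of 0.50 ± 0.07 and Prim1 of 0.39 ± 0.08. These 7 genes were called in each of the fits on the mitosis score named above.

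The genes with an E2F motif were set beside those without one along the mitosis score. Among the 36 genes with a RefSeq promoter, 10 of the 15 with a motif rose, with a median slope of 0.21 over the 15, and 13 of the 21 without a motif rose, with a median slope of 0.23, where 13.2% of all genes tested rose. Without P425, 4 of the 15 rose, with a median slope of 0.06, and 9 of the 21, with a median slope of 0.11, where 9.37% of all genes did. Rrm2, Tyms and Prim1, with the steepest slopes when P425 was included (0.58, 0.47 and 0.42), are among the genes with no match in their window. Pola1, which has a match, came next with a slope of 0.41. Its slope without P425 was 0.38, below Prim1 (0.42) and Rrm2 (0.41) and above Tyms (0.32). Mcm5 and Mcm6, whose overlapping motifs are shown above, were not called. No difference between these sets was tested.

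Other genes of the replication cycle were taken from lists by role. Of all genes tested 13.2% rose and 14.7% fell with the mitosis score, and 9.37% and 10.5% without P425. Of the 22 measured genes that accompany the fork 19 rose with the mitosis score and 1 fell, and 12 rose without P425. The steepest were Atad5, which unloads the clamp (0.71 ± 0.08), and Top2a, the topoisomerase that untangles the copies (0.56 ± 0.03). Of 10 genes that control licensing and firing 8 rose, and 6 without P425, led by Dbf4, the activator of the Cdc7 kinase (0.64 ± 0.05), and Ccna2, cyclin A (0.40 ± 0.03). Of 13 E2F and pocket protein genes 8 rose and 1 fell, and 6 rose without P425, led by E2f3 (0.49 ± 0.06) and E2f8 (0.49 ± 0.05). Of 9 genes of chromatin assembly and maintenance all 9 rose, and 5 without P425, with the histone chaperone Nasp (0.56 ± 0.05) and the remodeller Hells (0.50 ± 0.08) ahead. Of 10 replication checkpoint genes 7 rose, and 4 without P425, led by the kinase Wee1 (0.43 ± 0.11) and by Etaa1, an activator of the ATR kinase (0.36 ± 0.04). Of 14 further genes of nucleotide supply 7 rose and 1 fell, and 3 rose without P425. The steepest of these were Dck, deoxycytidine kinase (0.37 ± 0.05), and Umps, of pyrimidine synthesis (0.30 ± 0.07). The nucleotide list had a median slope of 0.08 and the fork list of 0.30, and without P425 these medians were 0.06 and 0.15.

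The genes most like the replication score across tumours were ranked by their correlation with it. The 15 genes outside the set with the highest Pearson r over 27 tumours were Brca1 (0.95), Birc5 (0.94), Nup107, Zw10, Spag5, Kntc1, Kif22, Dlgap5, Srrt, Clspn (0.92), Anp32e, Rad54l, Stil, Nup155 and Cdca8 (0.91), of 19194 genes ranked. Brca1 codes for a repair protein, Birc5 and Dlgap5 are on the mitosis list, and Clspn, which mediates the checkpoint at stalled forks, is on the fork list. Without P425 their r values lay between 0.77 (Rad54l) and 0.89 (Zw10), and 10 of the 15 were still among the first 15.

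The replication genes did not move as 1 block. Over the 903 pairs of genes the median r was 0.42 over 27 tumours and 0.23 without P425, and pairs with r above 0.50 numbered 358 with P425 and 155 without it. Pairs with r below -0.30 numbered 11 with P425 and 44 without it. No such counts or median were made over pairs of other genes. These values therefore describe the replication genes and do not show that they differ from other genes. The subunits of the ring had a median r among themselves of 0.36 over 27 tumours and of 0.11 without P425, and those of the single-strand binding complex of 0.05 and -0.06. The pairs with the highest r over 27 tumours were Cdc45 with Mcm10 (0.94, and 0.85 without P425), Cdc45 with Cdc6 (0.88 and 0.73), Orc4 with Prim1 (0.88 and 0.86) and Mcm10 with Tyms (0.87 and 0.75). Without P425 they were Orc4 with Prim1, Cdc45 with Mcm10, Orc2 with Orc4 (0.85) and Cdt1 with Pold1 (0.84). Mcm3 and Mcm6, both ring subunits on chromosome 1, had r = 0.64 and 0.62.

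Without P425 a pair of opposed sets could be seen in the correlations, which were picked from these values and carry no test. One holds the origin subunits Orc2, Orc3, Orc4 and Orc5 with the priming genes Pola1, Prim1 and Prim2 and with Pole2, with a median r of 0.64 over its 28 pairs. The other holds Mcm5, Cdt1, Pold1, Pold2, Tk1 and Gins2, with a median r of 0.65 over its 15 pairs. Between the sets the median r was -0.36 over 48 pairs, and the lowest values were those of Mcm5 with Orc4 (-0.62), Gins2 with Orc2 (-0.57) and Orc4 with Cdt1 (-0.56). With P425 the median between the sets was -0.13. Genes of these sets also varied with a shift common to whole arrays. The mean over 20 chromosomes of the median level of their genes (relative to each gene's mean) ran from -0.08 in P219 to 0.07 in P311. Without P425, r with this mean ran from -0.63 (Orc4) to -0.23 (Orc3) over the 8 genes of the first set and from 0.37 (Gins2) to 0.68 (Mcm5) over the 6 of the other. Pcna (-0.48) and Rrm1 (-0.45), which are in neither set, varied with it as well. The part of this shift in the opposed sets was not tested.

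**Figure D4:**
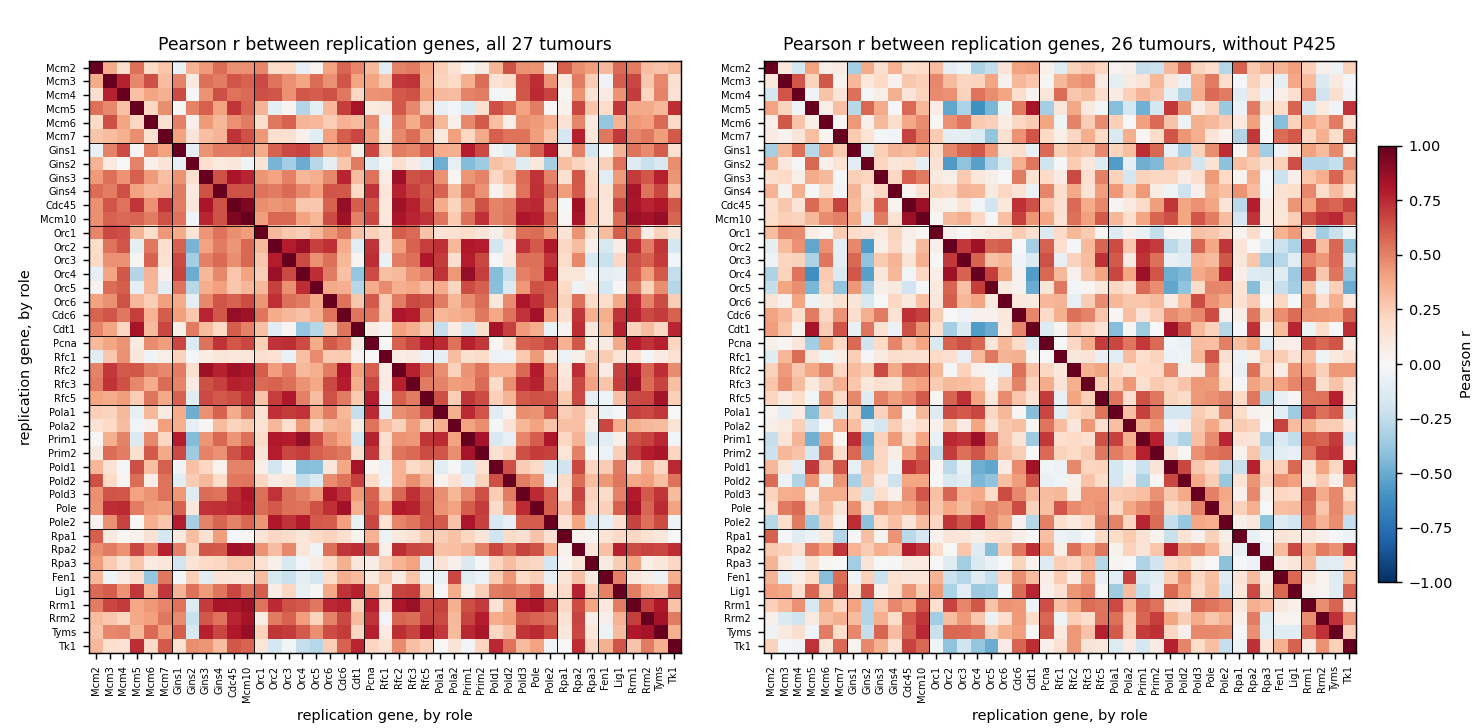
Pearson r between all pairs of the 43 replication genes, grouped by role, over 27 tumours (left) and over 26 tumours without P425 (right). Most pairs are positive on the left, with a median of 0.42, and the right panel has a median of 0.23 with negative blocks between Orc2 to Orc5, Pola1 and Prim1 on one side and Mcm5, Gins2, Cdt1 and Pold1 on the other.

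Position in the genome was not used to choose the genes. They lie on 13 chromosomes, with 8 genes on chromosome 5, 6 on chromosome 8 and 4 each on chromosomes 1, 2, 7 and 11. Each gene was fitted with limma on the score of its own chromosome, which is the median over the other genes there, with the mitosis score as a covariate. In this fit 9 of the 43 genes rose and 1 fell, where 10.3% of the 22106 genes tested rose and 1.04% fell. The members' share, 9 of 43, was above that background. In a fit of only the genes above the median of all rows, where all 43 lie, 16.7% of genes rose. The members called in that fit were not all the same, as Mcm2 and Orc2 rose there and Orc4 was not called. No test of a difference from either background was made. The 9 rising members in the fit of all genes were Fen1 and Pola2 on chromosome 19, Mcm5, Cdt1 and Gins3 on chromosome 8, Pold2 and Cdc6 on chromosome 11, Pold1 on chromosome 7 and Mcm6 on chromosome 1. Orc4 on chromosome 2 fell by 0.15 ± 0.05. Without P425 again 9 rose and 1 fell, where 8.23% of all genes rose and 0.796% fell, with Mcm3 in place of Gins3. With no mitosis score in the fit, Mcm5, Cdt1 and Fen1 rose and Orc4 and Rrm1 fell, where 9.59% of all genes rose and 1.06% fell, so Gins3, Pold2, Cdc6, Pola2, Pold1 and Mcm6 were not called there. Without both the mitosis score and P425, Mcm3, Mcm5, Mcm6, Cdt1, Pola2, Pold2 and Fen1 rose and Orc4 and Rrm1 fell, where 10.6% of all genes rose and 1.07% fell.

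The chromosome scores were not independent of each other. P219 was the lowest tumour on 12 of the 20 chromosomes, and the score of chromosome 8 correlated at r = 0.85, that of chromosome 7 at 0.90 and that of chromosome 11 at 0.73 with the mean of the other chromosomes. For chromosomes 19 and 1 this r was 0.00 and 0.06. With the mean of the other chromosomes as a further covariate 8 genes rose, where 4.92% of all genes did, and 6 rose without P425, where 3.81% did. Fen1, Pola2, Pold2, Cdc6 and Mcm6 were called in each of these fits. Cdt1, Gins3 and Orc4 were not called once the other chromosomes were included. Mcm5 and Orc2 were called there only with P425, and Pold1 only without it.

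Fen1 gave the clearest relation, with a slope of 0.36 ± 0.05 log2 per SD of the chromosome 19 score (limma adjusted p = 9.3e-05), 0.35 ± 0.05 without P425 and 0.37 ± 0.05 with the other chromosomes in the fit. It was lowest in P235 (6.77) and P1218 (6.80), which with P1394 had the lowest chromosome 19 scores (-0.17, -0.18 and -0.17). It was 8.12 in P569 and 8.09 in P966, where the chromosome 19 score was 0.11 and 0.13, but highest in P500 (8.28), where that score was 0.05. P425, with the highest chromosome 19 score (0.14), had 7.41. The Fen1 row used here correlated with the other Fen1 row at only 0.20. Pola2, the second polymerase alpha subunit, had a slope of 0.22 ± 0.05 and lay between 7.79 in P1469 and 9.19 in P500. It was 8.34 in P1218, 8.53 in P235 and 8.52 in P1394, against 8.88 in P569.

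Pold2, a polymerase delta subunit on chromosome 11, had a slope of 0.25 ± 0.05 and its highest level in P569 (10.25), with 9.07 in P425 and 9.12 in P219. Cdc6 had a slope of 0.20 ± 0.05 on the same chromosome score, but of 0.01 ± 0.07 with no mitosis score in the fit. Mcm6 was highest in P235 (10.88), P1218 (10.82) and P1394 (10.77), the 3 tumours with the highest chromosome 1 scores (0.13, 0.10 and 0.09). Its slope was small, 0.09 ± 0.03. The same 3 tumours also had the 3 highest levels of Mcm3, Orc2 and Prim2, the other replication genes on chromosome 1. On chromosome 8 the score was highest in P311 (0.25), where Gins3 ranked 1 with 9.52, Mcm5 ranked 2 with 11.38 and Cdt1 ranked 5 with 10.38, counted from the highest of the 27 tumours.

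**Figure D5:**
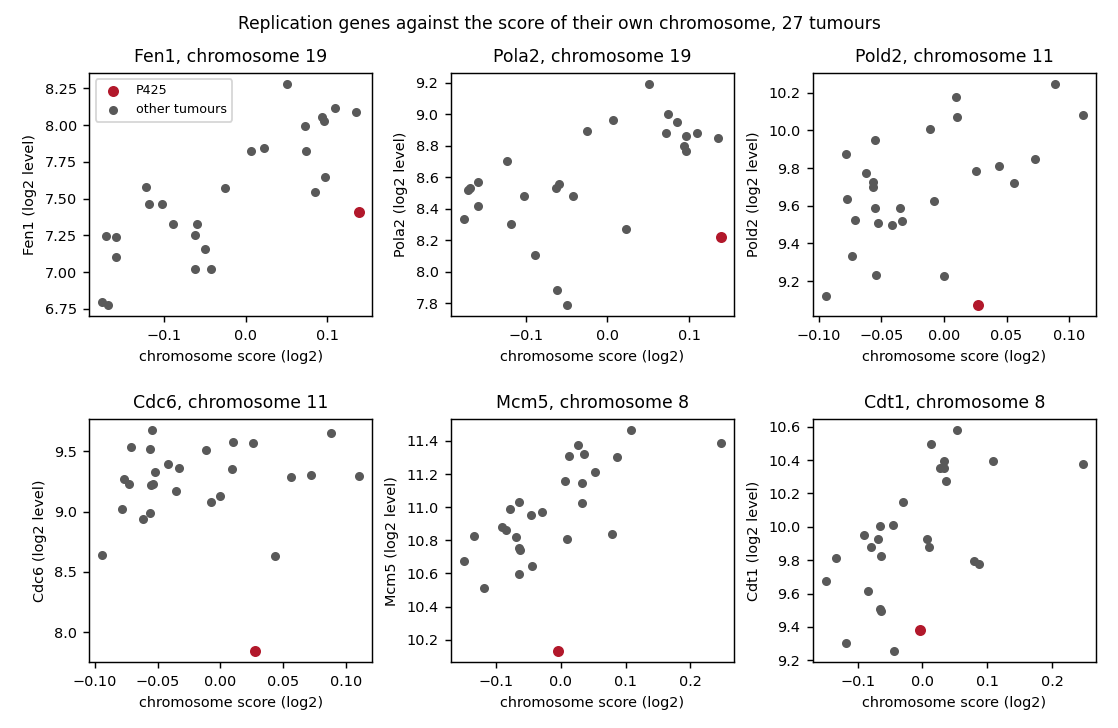
Log2 level of 6 replication genes (vertical) against the score of their own chromosome (horizontal, log2), 1 point per tumour with P425 in red. Fen1 and Pola2 are shown against chromosome 19, Pold2 and Cdc6 against chromosome 11, and Mcm5 and Cdt1 against chromosome 8. Slopes per SD of the score with the mitosis score as a covariate ran from 0.20 (Cdc6) to 0.36 (Fen1). The points are not adjusted for the mitosis score, without which Cdc6 had a slope of 0.01 ± 0.07.

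Scores of stroma, oxygen supply and androgen response were tested in the same way. Shares of all genes are given at the adjusted p and do not match the counts at an unadjusted p under 0.05. Along the fibroblast and matrix score 0 of the 43 genes were called by limma, with 1 at an unadjusted p under 0.05, where 8.36% of all genes rose and 6.04% fell. Without P425 it was again 0, with 2 at an unadjusted p under 0.05, where 8.81% rose and 6.32% fell. Along the hypoxia and glycolysis score 0 were called, with 5 at an unadjusted p under 0.05, where 4.25% of all genes rose and 2.32% fell. Without P425, Orc1 rose by 0.17 per SD of that score, and Pola1 and Rrm2 fell by 0.27 and by 0.41, where 5.9% of all genes rose and 4.35% fell. Along the androgen-responsive score 20 of the 43 genes fell and 0 rose, where 5.62% of all genes fell and 7.18% rose. Of the genes above the median of all rows, fitted alone, 10.9% fell and 9.12% rose. In that fit Mcm2 and Rrm2 fell in addition to the same 20 genes. Cdc45 fell by 0.35 ± 0.05, Mcm10 by 0.32 ± 0.06 and Cdc6 by 0.27 ± 0.05 per SD. Without P425 none of the 43 was called, where 2.94% of all genes rose and 0.501% fell at the adjusted p. There were 12 at an unadjusted p under 0.05, a count with no matching share of all genes here. Slopes of the 43 genes in that fit had both signs, from -0.18 (Cdt1) to 0.079 (Prim1). Cdc45 came closest to a call with a slope of -0.16 ± 0.05 (limma adjusted p = 0.055). The calls along the androgen-responsive score therefore rest on P425, which has the highest such score.

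With the mitosis score as a covariate, the ring subunits Mcm3 (0.19 log2 per SD) and Mcm4 (0.14) and the origin subunit Orc1 (0.21) rose along the hypoxia and glycolysis score and Rrm2 fell by 0.27, where 4.14% of all genes rose and 2.56% fell. With the same covariate Orc4 (0.20), Pola1 (0.24) and Prim1 (0.27) rose along the androgen-responsive score, where 4.59% of all genes did. Cdc45 fell by 0.22, Cdt1 by 0.29 and Mcm5 by 0.23, where 4.9% of all genes fell. Without P425, Mcm4 (0.16) and Orc1 (0.21) still rose along the hypoxia and glycolysis score, where 1.34% of all genes rose and 0.672% fell. None of the 43 was called by limma along the androgen-responsive score without P425, where 3.46% of all genes rose and 1.59% fell at the adjusted p. At an unadjusted p under 0.05 there were 13, for which the share of all genes is not given here.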

How the data were processed

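Total RNA of 27 prostate tumours was measured on 1 single-label array each. The deposited values are log2 expression levels made by the authors, 41345 rows between 1.68 and 14.5, and Partek is the software credited in the submitters' processing notes. The sources used here do not state how the arrays were normalized. All 27 columns matched a sample title. A gene was read from rows with 1 platform symbol, from the brighter row where there were several, which gave 22180 genes, of which 22136 have a chromosome in the RefSeq table of GRCm38.p6. Nothing says whether other samples of these animals exist, and p-values measure the spread between tumours.

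A list score was the mean of log2 level minus gene mean. Genes were fitted on scores scaled to SD 1 with limma 3.58.1 in R 4.3.3 (lmFit, eBayes with a trend, two-sided), and p was adjusted by Benjamini-Hochberg over all genes tested at a threshold of 0.05. Scaling was over the tumours of each fit, so slopes with and without P425 differ in unit. The chromosome score needed at least 20 genes. The fits were tested on simulated data. Alternatives were quantile normalization, centred arrays, a filter on low genes, other row and score rules, covariates and leaving out tumours. The fits with the other chromosomes as a covariate and some without P425 were chosen after the data were seen. The genes and lists were chosen with earlier results of these data known. Named were all 44 genes, of each list the 2 genes with the largest absolute slope, and the 15 genes with the highest r with the replication score, leaving out symbols such as Rik and Gm.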

Additional observations from a re-analysis of the deposited data

How the results depend on the processing

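Along the mitosis score 29 genes rose, where 13.2% of all genes did, and 15 without P425, where 9.37% did. The count was 24 with composition scores as covariates (11.7% of all genes) or with the luminal and neuroendocrine scores (6.83%). With those 2 scores and without P425, 7 rose, where 4.63% of all genes did. There Cdc45 (-0.033), Mcm3 (-0.041), Mcm7 (-0.046) and Rpa2 (-0.073) had slopes below 0 and none of these 4 was called. With no covariate, leaving out 1 tumour at a time gave 15 to 30, and 0 to 0 along the fibroblast score. Along the hypoxia score, 0 calls became 3 without P425, where 5.9% of all genes rose and 4.35% fell. It was 2 with quantile normalization (4.99% and 2.7% of all genes) and 1 with centred arrays (5.35% and 1.66%). Genes above the median of all rows gave 2 (6.81% and 4.93%). The mitosis score as covariate gave 4 (4.14% and 2.56%), and 2 without P425 (1.34% and 0.672%). The range was 0 to 3 when 1 tumour was left out. Along the androgen-responsive score 20 genes fell, where 5.62% of all genes did. This became 0 without P425 (0.501% of all genes) and 0 without P425 and P219 (0.0361%). With the mitosis score as a covariate it was 3 (4.9%), and 0 without P425 (1.59%). The range was 0 to 22 when 1 tumour was left out. Without P425 and P219 the slopes of Orc6 (0.0063), Pole (0.031), Rfc2 (0.0073), Rfc3 (0.043), Rrm1 (0.023) and Tyms (0.042) were above 0, as was that of Tyms with the mitosis covariate (0.038, and 0.0115 without P425). For the own chromosome, 9 genes rose, where 10.3% of all genes did. This became 18 with quantile normalization, where 14.7% of all genes rose, and 16 with centred arrays, where 21.1% did. With no mitosis score it was 3 (Mcm5, Cdt1 and Fen1), where 9.59% of all genes rose. With neither that score nor P425 it was 7, where 10.6% did, and 7 to 13 when 1 tumour was left out of the first fit. The median r among the genes, 0.42, was 0.23 without P425 and 0.23 to 0.44 when 1 tumour was left out. The causes were not tested. No paired analysis was possible because the tumours form 1 group. Levels near background limit single rows, and the dimmer rows of Pole, Rpa1 and Rrm2 lay below the median of all rows.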
